A study of Mus musculus with 8 samples.

Results

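The FoxO transcription factors and the kinases and adaptor that control them were examined in layers II-IV of the mouse neocortex, taken on postnatal day 5. The 8 genes were Foxo1, Foxo3, Foxo4, Foxo6, Akt1, Akt2, Sgk1 and Irs2, out of 19938 genes tested, and all 8 had a probe set (a group of array probes summarised to 1 value) that named no other gene. The family was chosen by a measured value, the difference of Foxo1 between genotypes, which was already known. The probe set of each gene was selected on its mean level, the highest over the 8 arrays where a gene had several. Layers were cut out by laser microdissection, and total RNA of each pup was hybridised to 1 Affymetrix Mouse Gene 1.0 ST array. The 4 control pups were Bcl6 flox/flox;Nex +/+ and the 4 mutant pups were Bcl6 flox/flox;Nex Cre/+, so both groups carried the floxed Bcl6 alleles and only mutants carried Cre. Nex is Neurod6, a gene of postmitotic excitatory cortical neurons, so Cre was made in those neurons and other cells of the tissue kept the floxed alleles. By the series title, the study concerned the developmental death of cortical projection neurons.

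FoxO proteins are forkhead transcription factors that switch on genes of growth arrest, stress resistance, autophagy and, in neurons deprived of trophic support, cell death. Insulin, IGF and neurotrophin receptors act through adaptors such as Irs2 and phosphoinositide 3-kinase (PI3K) on the kinases Akt and SGK, which phosphorylate FoxO proteins, and phosphorylated FoxO is held in the cytoplasm by 14-3-3 proteins. The arrays measured transcripts, and neither phosphorylation nor nuclear location of a FoxO protein is part of these data. Bcl6, a zinc-finger repressor, is itself known as a FoxO target gene in blood cells.

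The sequence just upstream of Foxo1 is shown because Foxo1 is the gene for which the family was chosen and Bcl6 binds DNA, and one promoter of Akt1 is shown because it held the only motif match found. RefSeq promoters (GRCm38.p6) were found for 6 of the 8 genes, 15 in all, and the 250 bases before each start were searched on both strands. The BCL6 core motif TTCCTNGAA was in 0 of these 15 promoters and in 1.31% of all 32851 promoters. The FoxO binding element GTAAACAA was in 1 of the 15, a promoter of Akt1, and in 1.07% of all promoters. The match begins 162 bases before the Akt1 start and stands in capitals below, read on the opposite strand. A match, or its absence from this window, is a description of the letters only. The Foxo1 stretch is chr3:52268087-52268336 (plus strand) and the Akt1 stretch is chr12:112674885-112675134 (minus strand), both printed 5′ to 3′.
Foxo1: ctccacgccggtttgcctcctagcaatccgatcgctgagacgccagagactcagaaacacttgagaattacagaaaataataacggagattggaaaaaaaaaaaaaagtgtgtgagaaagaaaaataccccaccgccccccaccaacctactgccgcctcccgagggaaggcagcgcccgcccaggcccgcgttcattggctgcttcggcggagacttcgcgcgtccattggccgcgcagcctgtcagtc
Akt1: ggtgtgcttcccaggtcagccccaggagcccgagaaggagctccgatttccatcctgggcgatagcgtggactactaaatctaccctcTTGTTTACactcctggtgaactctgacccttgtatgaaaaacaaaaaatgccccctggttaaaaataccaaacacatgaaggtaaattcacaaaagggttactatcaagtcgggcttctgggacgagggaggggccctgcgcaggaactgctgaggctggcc

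The engineered loci and the tissue were checked first. Bcl6 read 6.55, 6.58, 6.25 and 6.23 in the controls, listed by replicate number, and 6.61, 6.76, 6.96 and 6.78 in the mutants, so no array labelled mutant read below a control. The position of its probes against the floxed exons is not stated, so this value is no check of the deletion, and each direction below rests on the labels. Neurod6, of which 1 copy holds Cre in mutants, was lower in every mutant (8.69 to 9.07) than in any control (9.15 to 9.41). All 11 upper-layer neuron markers tested lay between 7.85 and 12.33, above the median gene at 5.55. Mutant replicates 1 and 4 alone had a high level of Xist, the RNA of the inactive X chromosome (9.78 and 9.76, against 2.64 to 3.41 in the other 6 arrays). The Y-linked gene Eif2s3y read 2.80 and 2.29 in these 2 mutants and 7.4 to 7.8 in the other 6 arrays. By these levels the 2 mutants were female and the other 6 pups male, all 4 controls among them. Sex was thus not balanced between the groups, so results for the 8 genes are also given without these 2 arrays. Array medians lay between 4.94 and 5.01, and the precision is limited by the 4 arrays per group. Over all genes, 13 of 19938 (0.0652%) passed limma's adjusted threshold of 0.05 between genotypes, 10 of them higher in mutants (0.0502%).

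Foxo1, a main effector of insulin and growth factor signalling, read 7.56, 7.42, 7.25 and 7.08 in the controls, listed by replicate number, and 8.20, 8.16, 7.99 and 7.87 in the mutants. All 4 arrays labelled mutant lay above all 4 controls, with a gap of 0.32 between the lowest mutant and the highest control. The means were 7.33 ± 0.21 (SD, n = 4) and 8.06 ± 0.15. The difference was 0.73 ± 0.11 (SE) on the log2 scale, or 1.66-fold, with a 95% interval from 1.41-fold to 1.95-fold. Because this difference chose the family, it is given as a description with no test. In size it ranked 10 among the absolute differences of all 19938 genes, a rank drawn from the same value. Among the genes ahead of it were the sex-linked Xist (3.26), Eif2s3y (-2.44), Uty (-1.84) and Kdm5d (-1.37), and sex was not balanced between groups.

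The Foxo1 difference was also computed with arrays left out. Leaving out 1 array at a time gave differences from 0.65 (without control replicate 4) to 0.81 (without control replicate 1). Without control replicates 2, 3 or 4 the differences were 0.76, 0.71 and 0.65, and without mutant replicates 1 to 4 they were 0.68, 0.70, 0.75 and 0.79. Without both Xist-high mutants the difference was 0.75 ± 0.13 (SE). Those 2 mutants read 8.20 and 7.87, and the other 2 read 8.16 and 7.99, so both kinds lay above every control.

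Foxo3, the FoxO factor best known for inducing the death gene Bcl2l11, read 7.35, 7.27, 7.38 and 7.17 in the controls, listed by replicate number, and 7.42, 7.33, 7.26 and 7.15 in the mutants. The groups overlapped over nearly their whole range. The difference was -0.0045 ± 0.077 (SE), with a 95% interval from 0.888-fold to 1.12-fold (limma adjusted p = 0.9995).

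Foxo4, an X-linked FoxO factor, read 4.82, 4.69, 4.58 and 4.65 in the controls, listed by replicate number, and 4.80, 4.90, 5.08 and 4.85 in the mutants. Of the 4 mutants 3 lay above every control, and mutant replicate 1 lay just below control replicate 1. The difference was 0.22 ± 0.08 (SE), or 1.16-fold (95% interval 1.03-fold to 1.31-fold), and it did not pass over all genes (limma adjusted p = 0.932). Its unadjusted p was 0.0157, and 1.64% of all genes were higher in mutants at an unadjusted p under 0.05. The Xist-high mutants read 4.80 and 4.85, below the other 2 at 4.90 and 5.08, and without the Xist-high arrays the difference was 0.30 ± 0.09 (limma adjusted p = 0.998). Over the other alternatives it stayed positive, from 0.16 (without mutant replicate 3) to 0.29. The levels of Foxo4 lie below that of the median gene, and the deposited table holds no detection calls.

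Foxo6, a FoxO factor known for its expression in brain, read 5.86, 5.86, 5.77 and 5.78 in the controls, listed by replicate number, and 5.47, 5.71, 5.77 and 5.87 in the mutants. Mutant replicate 1 was the lowest array and mutant replicate 4 the highest, so the mutants spread more widely (SD 0.17) than the controls (SD 0.05). The difference was -0.11 ± 0.08 (SE; 95% interval 0.815-fold to 1.05-fold; limma adjusted p = 0.9995). Without mutant replicate 1 it was -0.04.

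**Figure D1:**
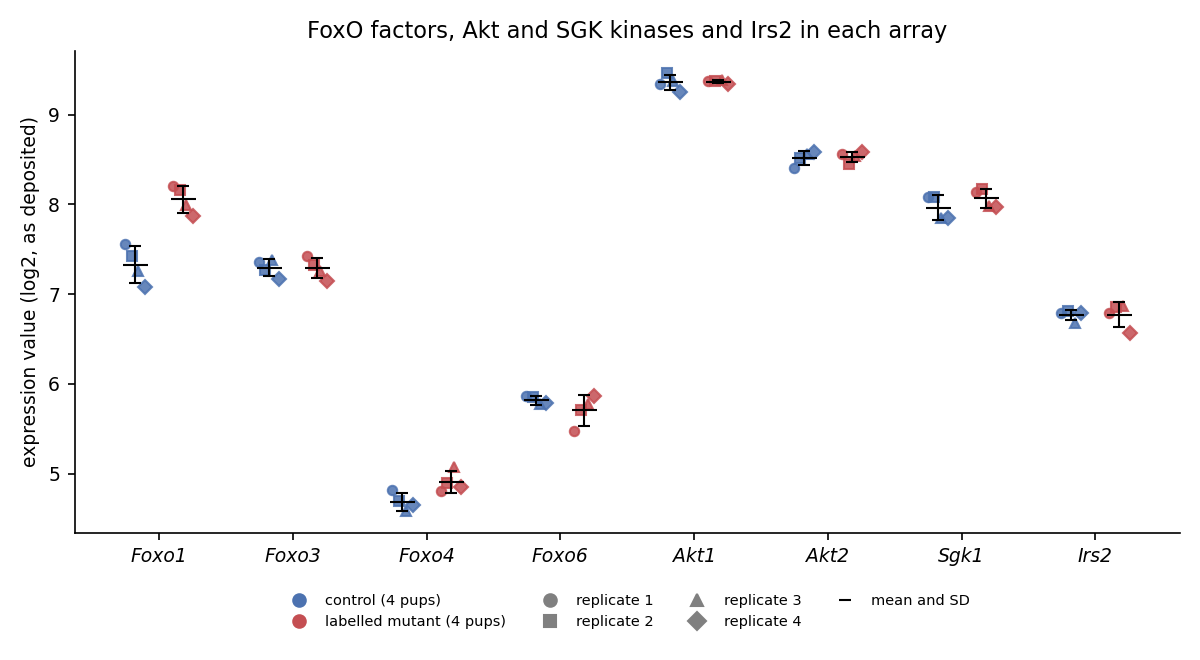
Deposited log2 values (y axis) of the 8 genes (x axis) in each array, with blue points for 4 control pups, red points for 4 pups labelled mutant, point shapes for the replicate number and black bars for the group mean and SD. The Foxo1 points do not overlap between groups (7.08 to 7.56 against 7.87 to 8.20), while those of the other 7 genes do.

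The kinases that phosphorylate FoxO proteins gave no call. Akt1, the broadly expressed Akt kinase, read 9.34, 9.47, 9.38 and 9.26 in the controls, listed by replicate number, and 9.37, 9.37, 9.39 and 9.34 in the mutants. All mutant values lay within the control range. The difference was 0.01 ± 0.06 (SE), with a 95% interval from 0.913-fold to 1.11-fold (limma adjusted p = 0.9995).

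Akt2, the Akt kinase most tied to insulin action on glucose, had 2 probe sets. The one kept for its higher mean read 8.40, 8.52, 8.56 and 8.58 in the controls, listed by replicate number, and 8.56, 8.46, 8.54 and 8.58 in the mutants, with a difference of 0.02 ± 0.07 (SE; limma adjusted p = 0.9995). Its groups overlapped almost fully. In identifier order, 19 of its 20 nearest named probe sets belong to genes of chromosome 11 and 0 to chromosome 7, where Akt2 lies, so the annotation and the order of identifiers disagree on what it measures. The other probe set, whose 20 neighbours all belong to chromosome 7, read 7.80, 7.76, 7.87 and 7.79 in controls and 8.04, 7.79, 7.77 and 7.82 in mutants, a difference of 0.05 ± 0.07 (limma adjusted p = 0.9996). For each probe set of the other 7 genes, 19 or 20 of 20 neighbours shared its gene's chromosome.

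Sgk1, a kinase related to Akt that is induced by glucocorticoids, read 8.08, 8.08, 7.85 and 7.85 in the controls, listed by replicate number, and 8.14, 8.17, 7.98 and 7.97 in the mutants. In both groups the arrays numbered 1 and 2 were high and those numbered 3 and 4 low, and the groups overlapped. The difference was 0.10 ± 0.08 (SE; 95% interval 0.949-fold to 1.21-fold; limma adjusted p = 0.9995).

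Irs2, the adaptor that links insulin and IGF receptors to PI3K and is known to be induced by FoxO factors, read 6.80, 6.81, 6.68 and 6.79 in the controls, listed by replicate number, and 6.79, 6.85, 6.87 and 6.57 in the mutants. Mutant replicate 4 was the lowest array and mutant replicate 3 the highest. The difference was 0.0019 ± 0.078 (SE; 95% interval 0.891-fold to 1.13-fold; limma adjusted p = 0.9995). Without both Xist-high mutants it was 0.09, still not past the threshold (limma adjusted p = 0.998).

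Side by side, Foxo1, whose difference chose the family, had groups that did not overlap. Of the other 7 genes 0 had such groups, against 2.75% of all genes (0.963% with mutants higher). Of the 7 genes other than Foxo1, 0 passed in limma over all genes, near the background of 0.0652%, and 1, Foxo4, had an unadjusted p under 0.05, as did 4.91% of all genes. Their differences lay between -0.11 and 0.22, with a median of 0.01 against -0.0096 for all genes. The 95% intervals of these 7 ended at 0.39 (log2) at the highest, that of Foxo4. For Foxo3, Akt1, Akt2 and Irs2 the intervals lay within -0.17 and 0.17. Whether the Foxo1 difference is larger than those of its relatives was not tested, since it chose the gene.

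**Figure D2:**
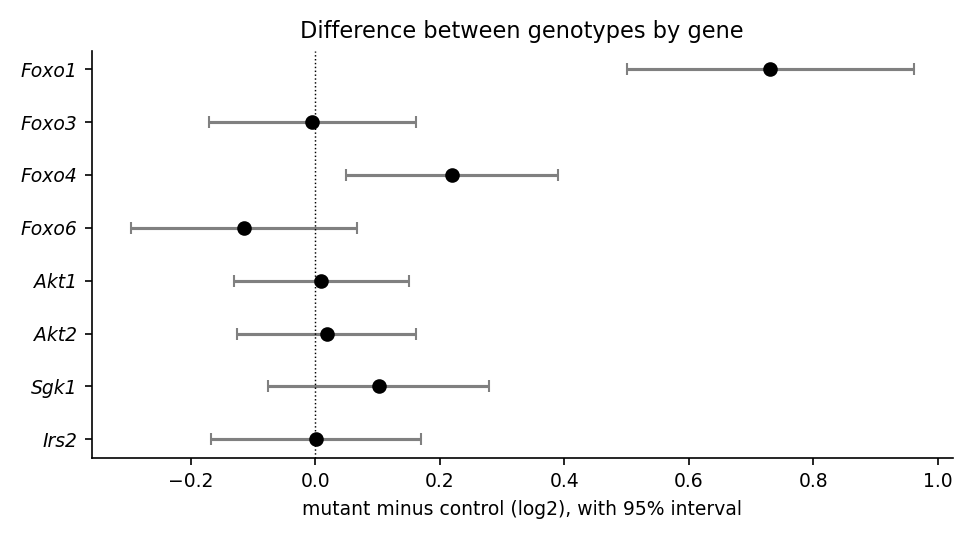
Mutant minus control (x axis, log2) for each of the 8 genes (y axis), with points for the estimate and bars for the 95% interval from limma over 4 arrays per group. The interval of Foxo1 runs from 0.50 to 0.96 and is a description with no test, since its difference chose the family. That of Foxo4 runs from 0.05 to 0.39, and those of the other 6 include 0.

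Within groups, Foxo1 had the widest spread of the 8 genes among controls (SD 0.21). Its arrays deviated from their group mean by -0.25 to 0.23, and those numbered 1 and 2 were above the mean and those numbered 3 and 4 below it in both groups. Sgk1 deviated the same way, by 0.07 to 0.12 in the arrays numbered 1 and 2 and by -0.12 to -0.09 in those numbered 3 and 4. The Sgk1 values fall into 2 clusters of 4 arrays, so no coefficient is given for that pair. The labels do not say what arrays of the same number share. Over all 28 pairs of the 8 genes, 0 correlations of deviations passed adjustment over the pairs, with a smallest adjusted p of 0.401 for Pearson's r and 0.0972 for Spearman's rho (exact permutation within groups, two-sided, 576 rearrangements). The smallest adjusted p for rho belonged to the pairs of Sgk1 with Foxo1 and with Akt2, whose coefficients are left out because of these clusters. Unadjusted, 3 pairs had an exact permutation p under 0.05 for r and 5 for rho. The lowest r of all pairs, and the only pair of Foxo1 besides that with Sgk1 at an unadjusted p under 0.05, was that of Foxo1 and the kept probe set of Akt2. There r was -0.79 (exact permutation p = 0.0434, adjusted p = 0.401) and rho -0.857 (exact permutation p = 0.0208, adjusted p = 0.194) over 8 arrays. Without the 2 arrays farthest from the median r was -0.566. The annotation of this probe set is in doubt, as given above, and every Akt2 correlation here uses it. None was computed for the other Akt2 probe set, so this is no result about Akt2 itself. For Foxo1 and Foxo3, r was 0.755 (exact permutation p = 0.0573, adjusted p = 0.401) and rho 0.69 (exact permutation p = 0.0781, adjusted p = 0.347) over 8 arrays, and r was 0.662 without the same 2 arrays. The genes whose deviations were most like those of Foxo1 over the 8 arrays were Olfr298 (r = 0.990, rho = 0.976), Zfp618 (r = 0.980, rho = 0.976), Ranbp3 (r = 0.979, rho = 0.976), Dnah1 (r = 0.974, rho = 1) and Nrg3 (r = 0.969, rho = 0.929). They are the top 5 of all genes by this measure, picked for the highest r over only 8 arrays. No test of these 5 correlations was run, so they are given as a description only. Their own differences between genotypes lay from -0.34 (Olfr298) to 0.03 (Dnah1), and 0 of the 5 passed in limma.

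**Figure D3:**
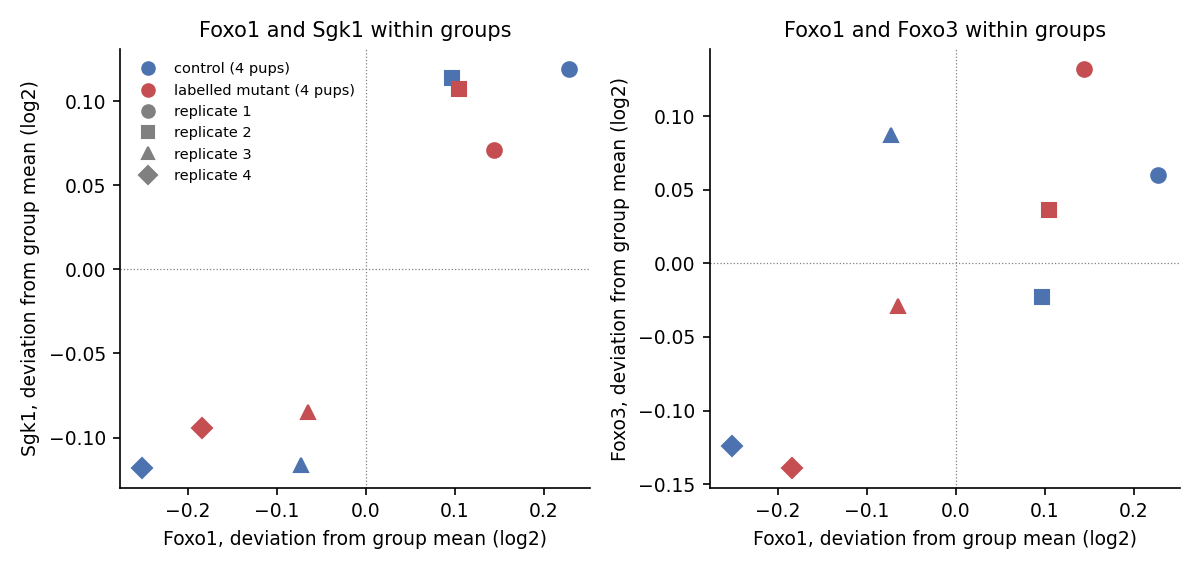
Deviation of each array from its group mean (log2) for Foxo1 (x axes) against Sgk1 (left y axis) and Foxo3 (right y axis), with blue for control and red for mutant pups and point shapes for the replicate number. Sgk1 falls into 2 clusters, 0.07 to 0.12 in arrays numbered 1 and 2 and -0.12 to -0.09 in those numbered 3 and 4, while Foxo3 is spread from -0.14 to 0.13.

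The rest of the pathway upstream of FoxO held 0 genes past the threshold in lists so short that the 0.0652% called over all genes gives less than 1 call in each. At the level of ligands, receptors and adaptors, 0 of 15 genes passed in limma and 0 had an unadjusted p under 0.05, against 4.91% of all genes, with a median of 0.0045 and differences from -0.17 to 0.05. Insr, the insulin receptor, read -0.05 ± 0.10 (SE), Igf1r, the IGF1 receptor, 0.02 ± 0.10 and Irs1, the adaptor related to Irs2, 0.05 ± 0.10. The smallest p of this list belonged to Irs3 (-0.13 ± 0.08), Ins2 (-0.14 ± 0.09) and Grb2 (-0.09 ± 0.07). Of 23 kinases and phosphatases that set Akt activity, 0 passed and 0 had an unadjusted p under 0.05 in limma, with a median of 0.0024. The catalytic and regulatory PI3K subunits Pik3ca and Pik3r1 read -0.02 ± 0.09 and 0.06 ± 0.09. Pdpk1, which phosphorylates the activation loop of Akt, read -0.05 ± 0.06, and Mtor and Rictor of the complex that completes Akt activation read -0.02 ± 0.07 and 0.02 ± 0.09. Pik3cg, a PI3K subunit mostly of white blood cells, had the smallest p there, with a difference of 0.17 ± 0.08, followed by the lipid phosphatases Inppl1 (0.11 ± 0.07) and Inpp5d (-0.08 ± 0.07).

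Targets of Akt and SGK other than FoxO, and proteins that act on FoxO, had 0 calls too, again near the background of 0.0652%. Of 14 other substrates and growth-control genes 0 passed in limma and 1 had an unadjusted p under 0.05 (4.91% of all genes). That gene was Nedd4l, a ubiquitin ligase and known SGK1 substrate, at 9.24 in controls and 9.43 in mutants (0.19 ± 0.07, SE; limma adjusted p = 0.932). Eif4ebp2, a brake on translation, read -0.17 ± 0.08 and Rps6kb2, an S6 kinase, -0.09 ± 0.07. Tsc2 and Gsk3b, inhibited by Akt, read 0.04 ± 0.07 and 0.03 ± 0.08. Of 32 partners and modifiers of FoxO proteins 0 passed and 0 had an unadjusted p under 0.05 in limma, with a median of -0.0095. Sirt1, a deacetylase of FoxO proteins, read -0.13 ± 0.08, Skp2, part of a ubiquitin ligase for Foxo1, 0.10 ± 0.07 and Mapk8, the stress kinase JNK1, -0.09 ± 0.06. Ywhaz, a 14-3-3 protein, read -0.03 ± 0.06. Together these 4 upstream and partner lists held 84 genes, 1 of them (1.19%) at an unadjusted p under 0.05 and 0 with groups that did not overlap (2.75% of all genes), with 42 positive and 42 negative differences and a median of -0.00073.

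Of 49 known FoxO targets tested in 5 lists 0 passed in limma in either direction (0.0652% of all genes) and 0 had an unadjusted p under 0.05, against 4.91% of all genes. Of their differences 19 were positive and 30 negative, from -0.12 to 0.14, and the median was -0.02 against -0.0096 for all genes, whose own differences were positive in 8891 cases and negative in 11047. Every one of the 49 differences was smaller in size than that of Foxo4, and 1 gene, Bcl2l11, had groups that did not overlap (2.75% of all genes). Bcl6 was in none of these lists because it is the engineered locus. Its difference was 0.37 ± 0.10 (SE; limma adjusted p = 0.655), larger than that of Foxo4 and opposite in sign to the median of the targets, with every mutant above every control. As the locus is engineered and the position of its probes is not stated, Bcl6 is not read here as a FoxO target. The median SE of the targets was 0.077. Levels differed widely among the targets. Control means of Il7r (2.64), G6pc (3.11), Angpt2 (4.10) and Pck1 (4.78) lay below the median gene at 5.55, and that of Cat (10.15) lay far above it. Without detection calls, the 0 calls say little about such dim targets.

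Among the 8 targets of cell death the median was -0.03. Bcl2l11, the death protein Bim, was at 4.03 in controls and 3.92 in mutants, a difference of -0.11 ± 0.06 (SE; limma adjusted p = 0.9995), with groups that did not overlap. Fasl, a death ligand, read -0.12 ± 0.07 and Tnfsf10, the death ligand TRAIL, -0.09 ± 0.09, with control levels of only 3.52 and 2.93. Among 9 cell cycle targets the median was -0.05, with Cdkn1b, the inhibitor p27, at -0.05 ± 0.07, Ccng2, cyclin G2, at -0.07 ± 0.08, Rbl2, the pocket protein p130, at -0.09 ± 0.08 and Ccnd1, a cyclin that FoxO factors repress, at -0.07 ± 0.09.

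Among 9 targets of defence against oxidative stress the median was also -0.05. The antioxidant enzymes Sod2 and Cat read -0.07 ± 0.08 (SE) and -0.07 ± 0.07, and Sesn3, a sestrin induced by FoxO factors, -0.0043 ± 0.080. Sesn1 read -0.10 ± 0.07, Selenop, a selenium carrier, -0.11 ± 0.10 and Txnip, a thioredoxin inhibitor, 0.07 ± 0.09. Among 14 targets of metabolism, protein breakdown and autophagy the median was -0.0010, with Fbxo32, the ubiquitin ligase atrogin-1, at 0.07 ± 0.08, Atg14, of the autophagy-initiating lipid kinase complex, at 0.09 ± 0.07, G6pc, of glucose production, at -0.12 ± 0.08 and Pck1, of the same pathway, at -0.10 ± 0.09. Among 9 targets known from lymphocytes and vessels the median was -0.02, with S1pr1, a lipid receptor, at 0.14 ± 0.09, Nos3, the endothelial nitric oxide synthase, at -0.12 ± 0.08 and Angpt2, a vessel growth factor, at -0.12 ± 0.09.

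**Figure D4:**
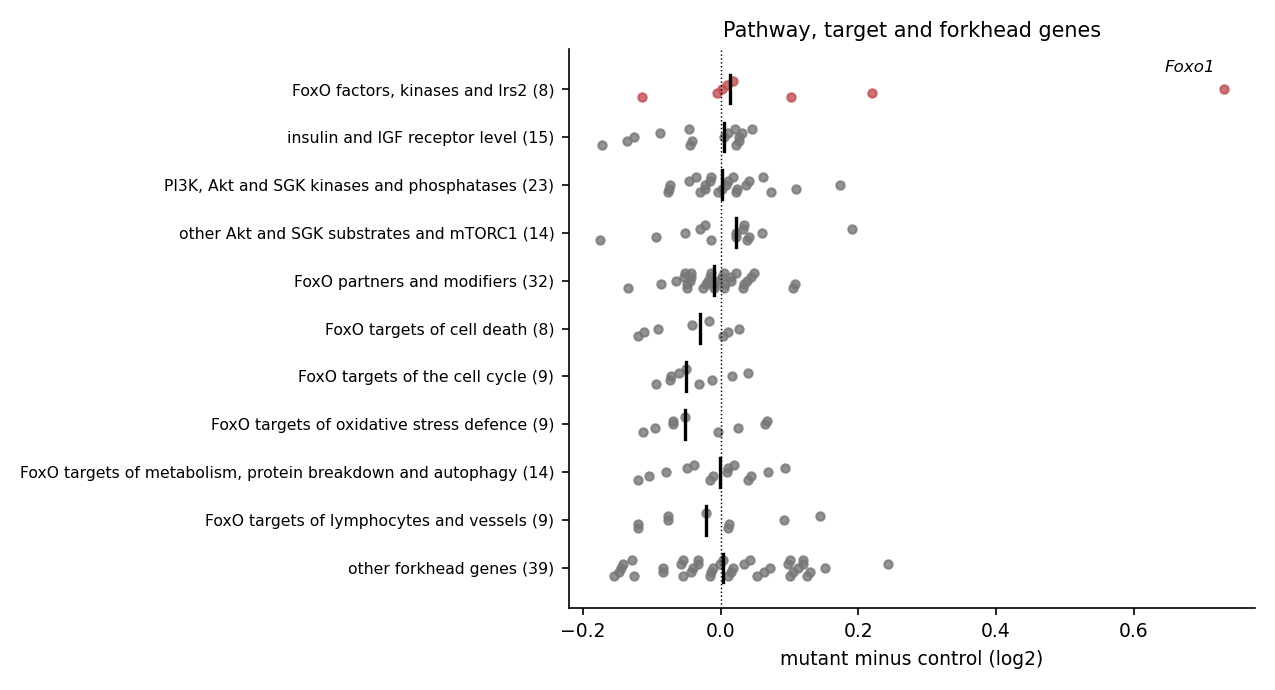
Mutant minus control (x axis, log2) for the 8 genes (red) and for each gene of 9 pathway and target lists and the other forkhead genes (grey), with the number of genes tested in parentheses and a black tick for the median. Foxo1 lies at 0.73, while the genes of the 9 pathway and target lists lie between -0.17 and 0.19.

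Of 39 other forkhead genes tested 0 passed in limma (0.0652% of all genes), at an unadjusted p under 0.05 there were 1 higher and 1 lower (1.64% and 3.28% of all genes), and the median was 0.0035. The groups did not overlap for 3 of the 39, against 2.75% of all genes, and these were Foxc1 and Foxq1 with mutants higher and Foxi3 with mutants lower. Foxc1, a forkhead factor of meninges and vessel walls, was at 5.18 in controls and 5.42 in mutants (0.24 ± 0.08, SE; limma adjusted p = 0.844). Foxq1 read 0.11 ± 0.06. Foxi3 and Foxc2 read -0.15 ± 0.07 and -0.14 ± 0.08. Foxp1, a factor of upper-layer neurons, read 0.13 ± 0.12, and Foxp2, of deep layers, -0.13 ± 0.08.

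Markers of the cell types in the captured tissue were measured beside these genes, since FoxO and SGK genes are also active in endothelium and glia. The summed marker level (log2 of the sum of linear values) overlapped between groups in all 8 lists. For endothelium it was 10.09 to 10.16 in controls and 10.03 to 10.26 in mutants, with 9 of 12 differences positive. For the oligodendrocyte lineage it was 9.72 to 9.89 and 9.74 to 9.95 (6 of 11 positive), and for astrocytes 11.20 to 11.36 and 11.12 to 11.40 (8 of 10 positive). For microglia it was 7.93 to 8.16 and 7.89 to 7.995 (2 of 9 positive), for interneurons 10.56 to 10.74 and 10.62 to 10.73 (7 of 11 positive) and for mural and meningeal cells 9.38 to 9.42 and 9.22 to 9.51 (5 of 10 positive). For upper-layer neurons it was 13.30 to 13.61 and 13.39 to 13.57 (7 of 11 positive) and for deep-layer neurons 10.12 to 10.28 and 10.24 to 10.30 (7 of 9 positive). Of the 83 markers 0 passed in limma over all genes, and 6 (7.23%) had an unadjusted p under 0.05, against 4.91% of all genes. Higher in mutants were Tbr1 of deep-layer neurons (0.17 ± 0.07, SE), the interneuron genes Calb2 (0.24 ± 0.11) and Reln (0.17 ± 0.07) and Cnp of oligodendrocytes (0.23 ± 0.07). Lower were P2ry12 of microglia (-0.27 ± 0.10) and Dcn of meningeal cells (-0.55 ± 0.25). Dcn was far higher in control replicate 1 (4.61) than in the other controls (3.20 to 3.54), and the mutants read 2.72 to 3.34. The groups did not overlap for 3 markers (2.75% of all genes), Tbr1 and Cnp with mutants higher and Gfap, an astrocyte filament, with mutants lower (-0.11 ± 0.06). No array value is 0, and the dimmest markers were Lum of meningeal cells (2.23) and Enpp6 of the oligodendrocyte lineage (3.07). The part of cell composition in the Foxo1 difference was not tested, and fewer cells of a type and less RNA per cell cannot be told apart in these bulk samples.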

How the data were processed

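The table the authors deposited holds log2 values (0.74 to 13.63) of 35556 probe sets on 8 arrays, made with BRB-ArrayTools per the series' design text. How they corrected background, normalized and summarised probes is not given in the sources. Of 23410 annotated probe sets, 21789 named 1 gene and 1621 several, and 21698 were matched by Entrez identifier to the GRCm38.p6 gene table for current symbols. The brightest probe set per gene left 19938 genes.

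The genotypes were compared by limma 3.58.1 in R 4.3.3 (lmFit, eBayes, genotype as the only term, two-sided), with Benjamini-Hochberg adjustment over all genes and a threshold of 0.05. Differences are mutant minus control, with the moderated SE. The fit was tested on simulated data. The members, lists and tests were chosen with earlier results of these data known. Named were the members, the 3 genes of smallest p per pathway list and of other forkhead genes, a fixed set of pathway genes, and the 5 genes most like Foxo1. Alternatives were quantile normalization, median centring, a filter on dim genes, a trend or robust prior, weighted arrays, a replicate block, other uses of probe sets, a Y-linked covariate, and leaving out arrays.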

Additional observations from a re-analysis of the deposited data

How the results depend on the processing

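In 19 alternatives, 18 for Foxo4, which the filter on dim genes removes, the direction of Foxo1, Foxo4, Foxo6 and Sgk1 never changed. That of Akt1 was kept in 18, Akt2 in 16, Irs2 in 15 and Foxo3 in 13. None of the 7 genes other than Foxo1 passed in any. For a gene with 1 probe set, the filter, both priors, the replicate block and the other uses of probe sets return the same estimate. These settings could not change a direction. Leaving out arrays could not reverse that of Foxo1 either, since every mutant lay above every control. The difference of Foxo1 ran from 0.65 to 0.81. Without the 2 Xist-high mutants the differences of Foxo3, Foxo6, Akt1, Akt2 and Sgk1 were -0.0011, -0.08, 0.02, -0.02 and 0.11. Over all alternatives the median of the 49 FoxO targets was negative, from -0.045 to -0.0073, while that of all genes ran from -0.017 to 0.0041. That of the 84 upstream and partner genes ran from -0.021 to 0.013. With the filter on dim genes, these medians cover only the genes that it keeps. No gene of these lists or other forkhead gene was called in any alternative. Over all genes, 10 were called higher and 3 lower. These counts were 4 and 1 with the replicate block, 3 and 1 with the Y-linked covariate, and 2 and 0 without the 2 Xist-high mutants (limma, with 562 lower at an unadjusted p under 0.05). With the filter on dim genes 1 was called lower. Leaving out 1 array gave 3 to 9 higher and 0 to 4 lower (limma, with 569 to 722 lower at an unadjusted p under 0.05 where 0 were called). Same-numbered arrays of the 2 groups had correlations of deviations from -0.012 to 0.159, and that of the arrays numbered 4 was the highest of all pairs. Not every array correlated best with its own number. These correlations over all genes cannot decide what arrays of the same number share, and the main fit had no term for it. With the replicate block the Foxo1 difference was 0.73 ± 0.07 (SE), against ± 0.11 without it. No array of the 8 genes stood far from the others of its group in a test of 16 groups. The 4 arrays per group limit the precision.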
